A study of Mus musculus with 6 samples.

Results

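KRAB zinc finger genes encode the largest family of sequence-specific repressors in mammals, and in the mouse many of them lie in tandem clusters. The clusters on chromosome 2, chromosome 4, chromosome 12 and chromosome 13 were examined here as 5 windows of the mm10 genome: 175.0 to 177.9 Mb of chromosome 2, 145.3 to 147.9 Mb of chromosome 4, 18.5 to 24.0 Mb of chromosome 12, and 61.9 to 62.9 Mb (proximal) and 65.0 to 68.0 Mb (distal) of chromosome 13. Members were the sites of the deposited ATAC-Seq table whose midpoint fell inside a window, which gave 533 of 229903 sites. The window on chromosome 2 held 5 of them, that on chromosome 4 held 262, that on chromosome 12 held 120, the proximal window on chromosome 13 held 30 and the distal one 116. ATAC-Seq, in which a transposase cuts open chromatin and inserts adaptors, had been performed on primary mouse embryonic fibroblasts (MEFs) of the C57bl6 background, from 3 HAT1+/+ lines (labelled HAT1 WT) and 3 HAT1-/- lines (labelled HAT1 KO), which lack the histone acetyltransferase HAT1. All lines were derived from embryos stripped of their internal organs and were grown in the same medium. The question was whether accessibility inside these clusters differed between the genotypes. The table gives, for each site, the log2 of the mean normalized reads of the HAT1+/+ lines and that of the HAT1-/- lines, so every level below is a mean of 3 lines with no spread, every difference is HAT1-/- minus HAT1+/+ on the log2 scale, and no difference was tested. In bulk cells, fewer open cells and less opening per cell cannot be told apart.

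The KRAB box at one end of these proteins recruits the co-repressor TRIM28, which in turn brings in the H3 K9 methyltransferase SETDB1 and heterochromatin protein 1. The zinc fingers at the other end read DNA, in many cases the sequences of endogenous retroviruses, and clusters expand by repeated duplication of whole genes. Neighbouring genes, their introns and their promoters are therefore often near copies of one another. HAT1 acetylates newly made histone H4 before it is deposited on replicating DNA.

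The genes behind the window names were checked in the RefSeq annotation. A gene was counted as a KRAB zinc finger gene when 1 of its translated proteins held at least 3 C2H2 fingers and a KRAB box by pattern. By this count 85 such genes started in the windows, of 322 in the genome: 21 on chromosome 2, 18 on chromosome 4, 4 on chromosome 12, 7 in the proximal and 35 in the distal window of chromosome 13. The window on chromosome 12 was the least like its name. It also held 8 genes with at least 3 fingers that did not meet the KRAB criterion and 11 with a KRAB box and fewer than 3 fingers, and 55 of its 120 sites lay in a stretch of 0.316 Mb from Asap2 to Ywhaq, where no KRAB zinc finger gene starts.

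The first property of the clusters was how little of them was tested. The windows on chromosomes 2, 12 and 13 had 1.72 (chromosome 2), 21.8 (chromosome 12), 30.0 (proximal chromosome 13) and 38.7 (distal chromosome 13) sites per Mb, against 133, 131, 117 and 108.5 in the 2 Mb on each side of the same windows and 87.3 over all chromosomes. The window on chromosome 4 stood apart with 100.8 sites per Mb, against 128.5 beside it. These densities count unassembled bases. Such bases made up 16.6% of the chromosome 4 window, 15.5% of the chromosome 2 window and 0% of the other windows. The share of single-copy sequence was measured at every 50th base as the share of 31-base words that occur once in the genome. Words with unassembled bases were left out. Only 5.85% of such words were unique in the chromosome 2 window, against 89.0% in its flanks. The share was 25.8% on chromosome 4, 20.6% on chromosome 12, 45.8% in the proximal and 41.1% in the distal window of chromosome 13, and between 72.6% and 80.9% in their flanks. Over all chromosomes it was 80.6%. Chromosome 4 had therefore close to the density of its flanks at a share of unique sequence near that of chromosome 12, where the density was 16.7% of that of the flanks. What part the repeated sequence had in the densities was not tested.

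**Figure D1:**
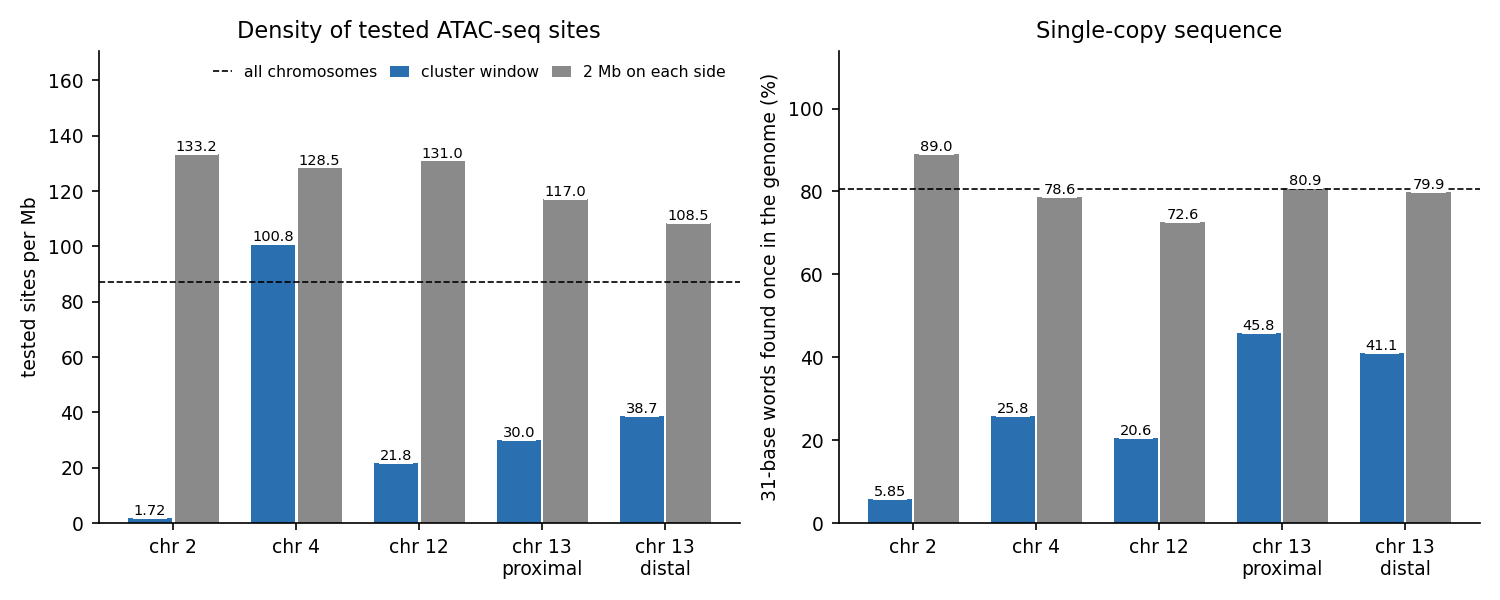
Tested sites per Mb (left) and the percentage of 31-base words found once in the genome (right) in the 5 windows (blue) and in the 2 Mb on each side (grey), with the value of all chromosomes as a dashed line. All 5 windows lie below their flanks in both panels, and chromosome 4 keeps 100.8 sites per Mb with 25.8% unique words. Unassembled bases are counted in the densities and left out of the word shares.

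On chromosome 2, a stretch of 1337 kb without any tested site ran from the site centred at 175869219 to the one centred at 177206500 and held the starts of 9 KRAB zinc finger genes, from Zfp966 to Gm14295. Of the 21 such genes in that window, 3 had a site at their start, Gm14391, Gm6710 and Gm14410, all predicted genes of the family. The sequences at these starts show how alike the copies are. The 100 bases printed for each come from the RefSeq promoter table (GRCm38.p6, the assembly of mm10) and overlap the tested site, at chr2:175206938-175207037 on the minus strand for Gm14391, chr2:175869125-175869224 on the plus strand for Gm6710 and chr2:177206497-177206596 on the minus strand for Gm14410. They are written 5′ to 3′ on the strand of the gene, and the capital marks a base that differs from Gm14391.
Gm14391: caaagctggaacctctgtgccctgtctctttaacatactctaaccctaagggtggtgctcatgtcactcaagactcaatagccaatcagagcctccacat
Gm6710: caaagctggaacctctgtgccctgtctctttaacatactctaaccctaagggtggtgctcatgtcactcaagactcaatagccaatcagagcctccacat
Gm14410: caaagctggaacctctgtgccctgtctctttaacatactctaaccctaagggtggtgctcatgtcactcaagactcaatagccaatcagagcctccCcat
Gm6710 and Gm14391 were identical over the block, and Gm14410 differed by A97C, counted from 1 at the 5′ end of the block. At Gm6710 the block ran past the annotated gene start at 175869215. Of the other 18 genes of that cluster, 16 held the block with at most 5 mismatches. The sites at Gm14391 and Gm6710 had the same pair of values, -0.61 in HAT1+/+ and -0.43 in HAT1-/-, and no 31-base word in either site was unique. The site at Gm14410 had 39.2% unique words, 2.50 (5.66 normalized reads) in HAT1+/+ and 1.52 (2.87 reads) in HAT1-/-, a difference of -0.98 that rests on very few reads.

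The values -0.61 and -0.43 are the lowest in the 2 genotype columns and stand for 0.655 and 0.742 normalized reads. A site at both minima has a difference of 0.18 that measures no change, and no fold is given for it. The table has 933 such sites, 0.406% of all. The windows held 56 of them, 10.5% of their sites, of which 44 lay on chromosome 4, 4 each on chromosome 2, chromosome 12 and distal chromosome 13, and 0 in the proximal window. Among all 933, 900 had no unique 31-base word, and the median word of such a site occurred 2 times in the genome. Of the 55 member sites without a unique word, 50 were at both minima, and 6 of the 100 members with above 0 but below 50% unique words were. Of the members with more unique words, 164 from 50% to below 90% and 214 of at least 90%, 0 were. The other values of the clusters are given for the 477 members above these minima, unless all sites are named.

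Above the minima, the clusters as a group had a median difference near that of the whole table. The median difference was -0.05 (quartiles -0.34 and 0.26), against -0.06 over all 228970 sites above the minima (quartiles -0.38 and 0.25) and -0.07 in the flanks. With the sites at the minima kept, the median of the 533 members was 0.02. By window the medians were 0.035 on chromosome 4, -0.125 on chromosome 12, 0.005 in the proximal and -0.115 in the distal window of chromosome 13. Their flanks had -0.09, 0.00, -0.07 and -0.13 in the same order. These 4 medians lay closer to each other than the quartiles within any of them: on chromosome 12 the quartiles were -0.42 and 0.24, and in the proximal window of chromosome 13 -0.25 and 0.09. Summed over the members, the normalized reads of HAT1-/- cells were 94.7% of those of HAT1+/+ cells, and over all tested sites above the minima they were also 94.7%.

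**Figure D2:**
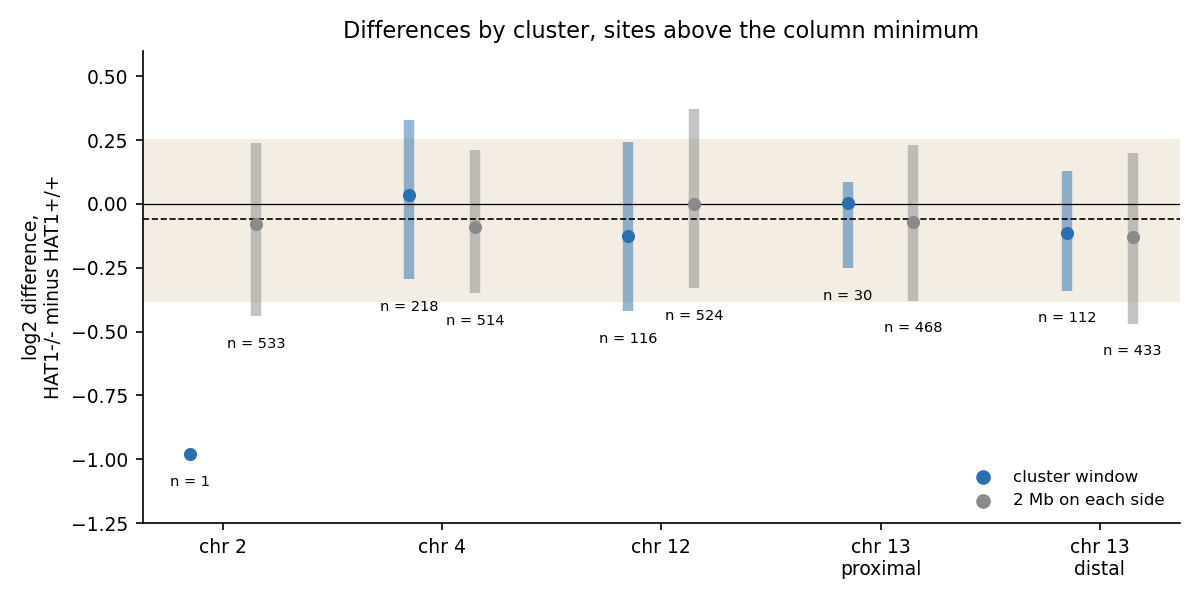
Median log2 difference (points) and quartiles (bars) of the sites above the column minima, in each window (blue) and in the 2 Mb on each side (grey), with n the number of sites. The dashed line and the shaded band are the median (-0.06) and quartiles of all sites above the minima, and the medians of the 4 windows with more than 1 such site lie between -0.125 and 0.035.

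At a difference of -1 or below stood 20 of the 533 members (3.75%), where 5.11% of all tested sites did. At 1 or above stood 19 (3.56%), where the whole table had 2.82%. The Wilson 95% intervals of the member shares, 2.44% to 5.72% and 2.29% to 5.50%, include the 5.11% and 2.82% of the whole table. All intervals given here treat neighbouring sites as independent, so they are a description only and no test. At the smaller limit of 0.58, 57 members (10.7%) were at -0.58 or below against 15.0% of all sites, and 54 (10.1%) were at 0.58 or above against 10.1%. Sites at the minima cannot reach these limits. Over the 477 members above the minima, an alternative added after the data were seen, 11.9% (Wilson interval 9.34% to 15.2%) were at -0.58 or below. At 0.58 or above were 11.3% (8.78% to 14.5%). The intervals of this alternative include the 15.1% and 10.2% of all sites above the minima. Most of the far members were weak: 19 of the 20 low ones and 15 of the 19 high ones had a mean under 16 normalized reads, and 2 of each had 1 genotype at its minimum. The moving mean of 25 neighbouring sites, which the study used with a limit of -0.58 to call large domains of lost accessibility, never passed that limit at a member. Its lowest values were -0.38 on chromosome 4, -0.30 in the distal and -0.21 in the proximal window of chromosome 13, -0.24 on chromosome 12 and -0.08 on chromosome 2, where the 25 sites reach far outside the window.

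Of the flanks, the right one of the distal window on chromosome 13 had the lowest median. Its 160 sites above the minima had a median difference of -0.375, with 27 at -1 or below, while its left flank had a median of -0.06 and the window between them -0.115. In that flank 38 moving means, between chr13:68737325-69393726, were below -0.58, down to -0.94. The run began 737 kb beyond the edge of the window. The right flank of chromosome 2 had a median of -0.22 with 23 of 221 sites at -1 or below, against -0.02 in the left flank.

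**Figure D3:**
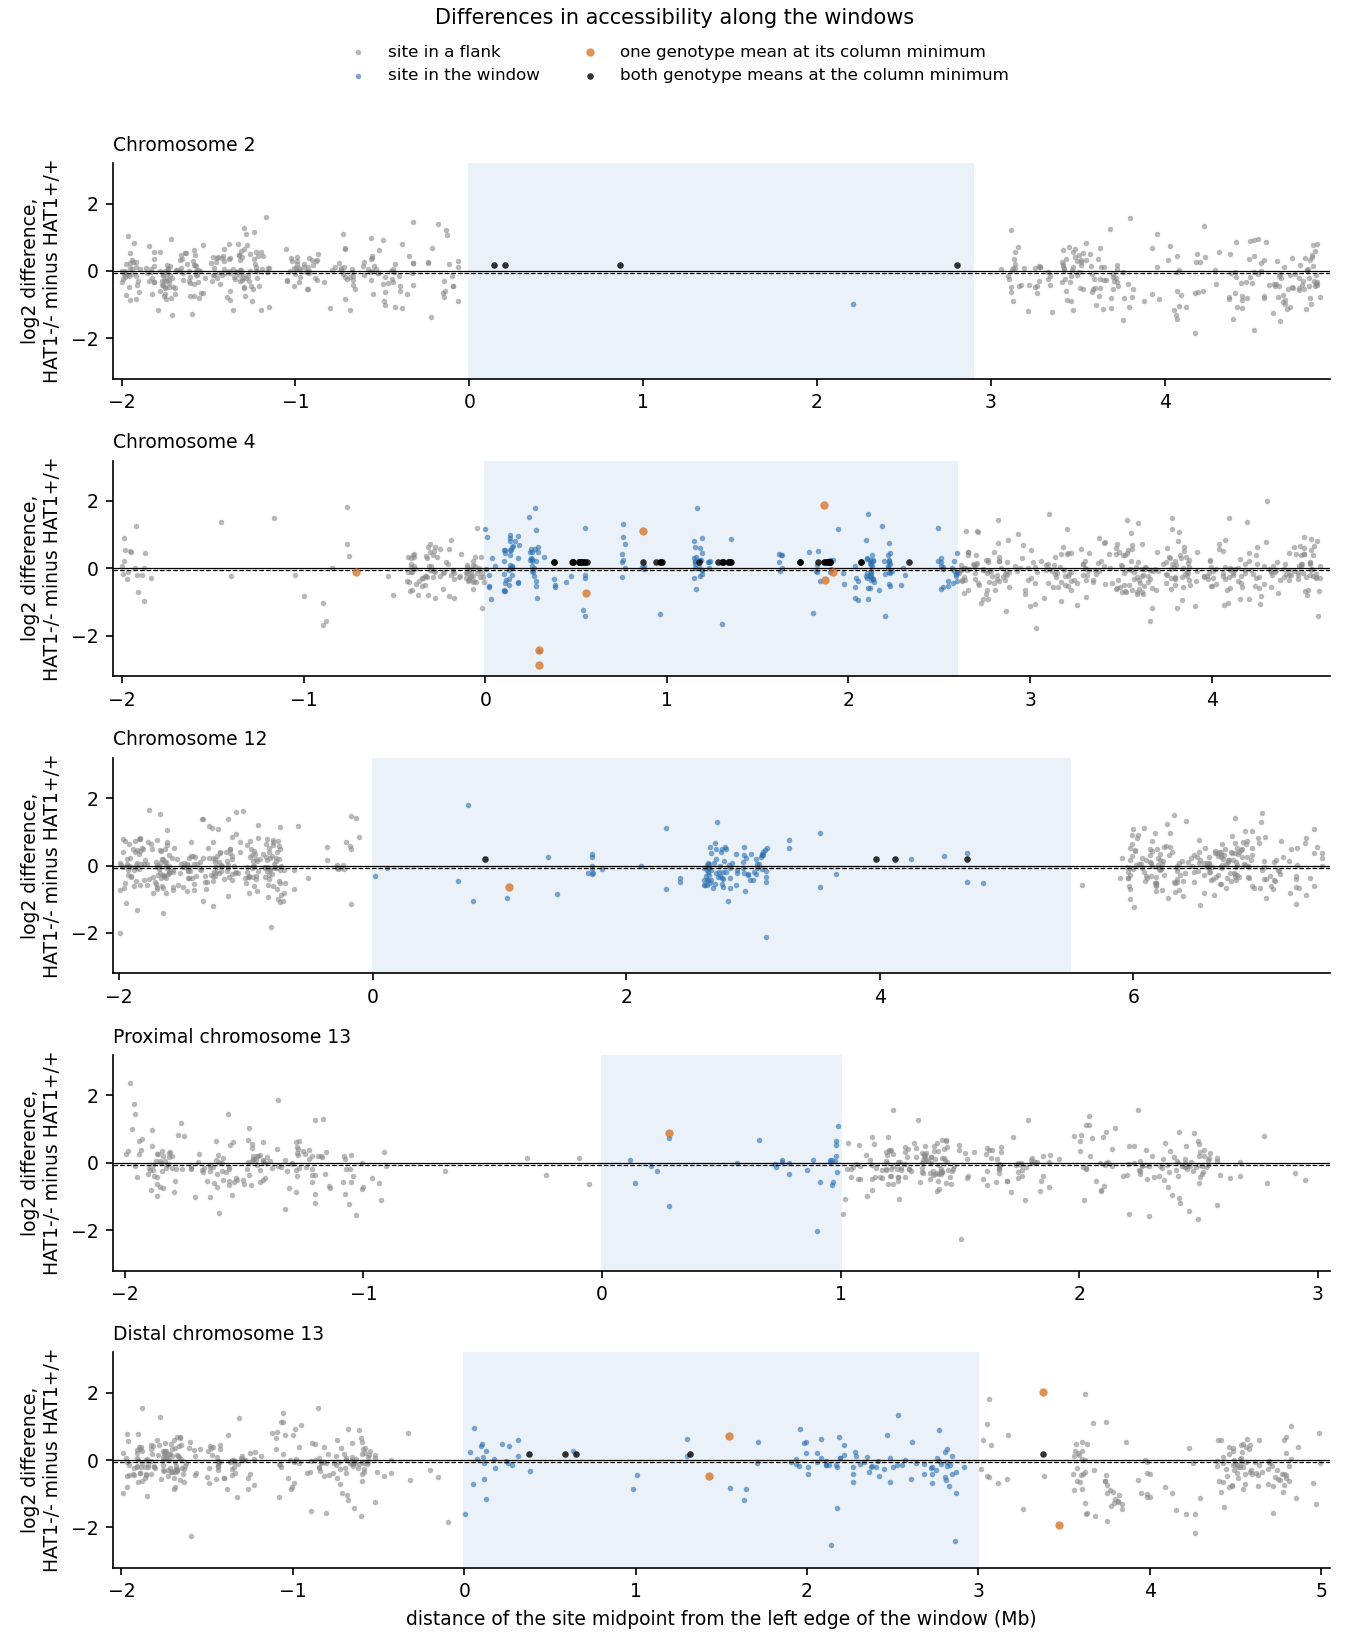
Log2 difference of each site against its distance from the left edge of the window (Mb), for the windows (shaded, blue points) and the 2 Mb on each side (grey points), with black points for sites at both column minima and orange ones for sites with 1 genotype at its minimum. The dashed line is the median of all tested sites (-0.06). Chromosome 2 is nearly empty, the black points gather on chromosome 4, and the low points right of the distal chromosome 13 window lie outside it.

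Among sites at starts of KRAB zinc finger genes the HAT1+/+ median was 7.20 in the distal window of chromosome 13 (39 sites) and 2.92 on chromosome 4 (14 sites), and among sites inside such genes it was 4.11 (8 sites) and 2.43 (51 sites). The median shares of unique words in these sites were 89.1% and 55.0% at starts and 98.7% and 52.8% inside genes. What part they had in the levels was not tested. Many starts had no site. A tested site lay within 1 kb of an annotated start for 33 of the 50 window genes named Zfp or Znf (66.0%), and for 330 of the 347 such genes elsewhere (95.1%). By the protein pattern, which was added as an alternative after the data were seen, the counts were 45 of 85 (52.9%) and 219 of 237 (92.4%). The shares of starts with a site were 3 of 21 on chromosome 2, 7 of 18 on chromosome 4, 3 of 4 on chromosome 12, 6 of 7 in the proximal and 26 of 35 in the distal window of chromosome 13. The median level at starts in HAT1+/+ was 3.49 on chromosome 4, 5.86 in the proximal window and 7.40 in the distal one, against 7.65 at KRAB zinc finger genes elsewhere and 7.12 at all coding genes. In HAT1-/- the medians were 3.80, 5.88, 7.19, 7.54 and 7.02 in the same order.

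Distal chromosome 13 held the most open starts. The highest was that of Zfp369, at chr13:65278119-65279437 in an exon, with 9.06 in HAT1+/+ and 8.92 in HAT1-/-, or 534 and 484 normalized reads. Zfp712 followed with 8.78 and 8.73, Zfp87 with 8.32 and 8.17, and Zfp708, which is known to bind a family of retrotransposons, with 8.03 and 8.10 at an alternative start of the gene. Zfp729a had 8.02 and 7.93, and Rsl1, a repressor of sex-limited liver genes, had 7.22 and 7.02. At the low end were Zfp429 (6.04 and 5.84), Zfp459 (5.77 and 5.29) and Rslcan18 (4.93 and 4.89). The levels of the 26 starts thus ran from 4.93 to 9.06 in HAT1+/+, while the difference between genotypes at the same sites ran from -0.55 to 0.07.

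The differences at these starts were small, and most had the same sign. In HAT1-/- cells 23 of 26 distal start sites were lower, with a median of -0.145 and quartiles of -0.21 and -0.075. The largest was at Zfp729b, with 7.45 in HAT1+/+ and 6.90 in HAT1-/-, and the 3 that were higher, Zfp708, Zfp455 and Zfp874b, were higher by 0.07 at most. No site of this group reached -0.58. Elsewhere in the genome, 151 of the 206 start sites of KRAB zinc finger genes above the minima were lower (73.3%), with a median of -0.10, and over all coding genes 9520 of 14730 were (64.6%), with a median of -0.07. Restricted to start sites of at least 64 normalized reads, 20 of 23 were lower in the distal window (median -0.14), 144 of 190 at KRAB zinc finger genes elsewhere (median -0.10) and 6635 of 10217 at all coding genes (median -0.06). The 13 distal start sites with at least 90% unique words had a median of -0.14 with 12 lower, and the other 13 had -0.20 with 11 lower. In the proximal window the 6 start sites ran from -0.23 at Zfp808 to 0.08 at Gm36298, with a median of 0.035. How much of these differences lies within the spread between lines cannot be read from genotype means.

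**Figure D4:**
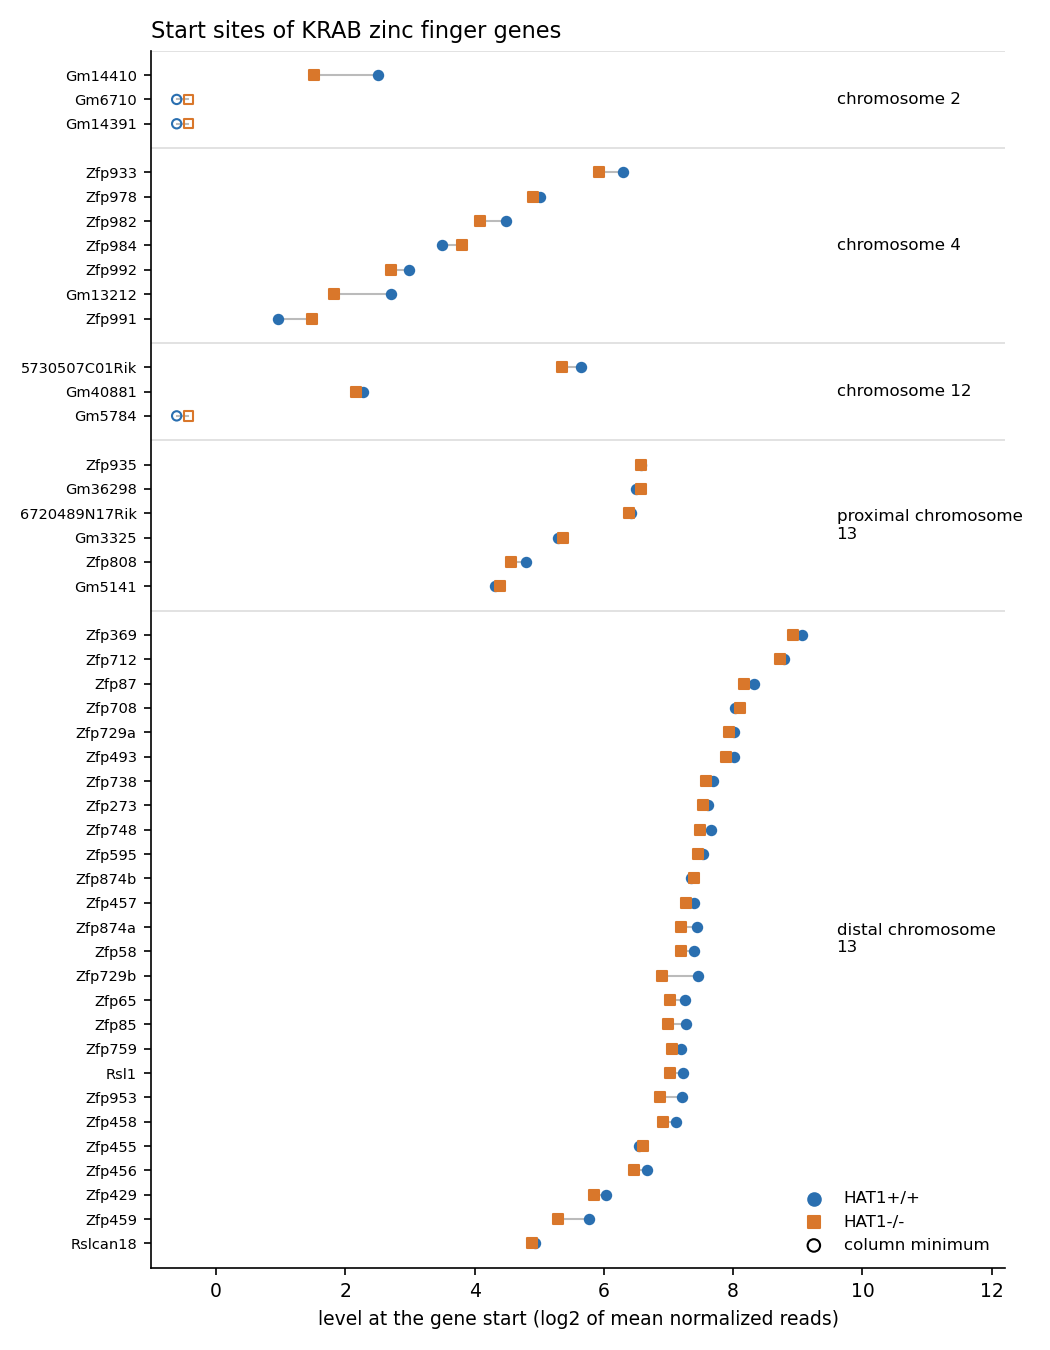
Level at the start of each KRAB zinc finger gene with a tested site (log2 of mean normalized reads), for HAT1+/+ (blue circles) and HAT1-/- (orange squares), by window. Open symbols mark sites at the column minima. The distal chromosome 13 genes reach 9.06 and most of their squares lie just left of the circles, and the genes of chromosome 4 lie at 6.29 or below.

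A short promoter word was common in the distal group and rare in the other clusters. Of its 35 genes, 30 were in the RefSeq promoter table, which gives 250 bases before and 50 bases after a start. The word CTACANNTCCCA, searched on both strands, was found in 20 of the 30 (66.7%), in 0 of 21 genes of the chromosome 2 cluster, in 0 of 7 of the proximal chromosome 13 cluster, in 0 of 3 on chromosome 12 and in 1 of 14 on chromosome 4. It was found in 29 of 210 KRAB zinc finger genes elsewhere (13.8%) and in 481 of the 27025 gene symbols of the table (1.78%). It was chosen as the word of this form (12 bases, the middle 2 free) held by most distal promoters, after words shared by them had been seen, and the next most shared word was in 15. It resembles the known site of the activator ZNF143, and the match is a description of letters only. The 250 bases before the start are printed for 3 carriers at distal chromosome 13 with high and middling levels, for Zfp933, the carrier on chromosome 4, and for Zfp640, a distal gene with neither the word nor a tested site. Capitals mark the word, here on the opposite strand (as TGGGANNTGTAG) in the first 3. The coordinates are chr13:67061171-67061420 (minus strand) for Zfp712, chr13:67081546-67081795 (minus) for Zfp708, chr13:67172932-67173181 (plus) for Rsl1, chr4:147848419-147848668 (minus) for Zfp933 and chr13:66680804-66681053 (minus) for Zfp640, all in GRCm38.p6.
Zfp712: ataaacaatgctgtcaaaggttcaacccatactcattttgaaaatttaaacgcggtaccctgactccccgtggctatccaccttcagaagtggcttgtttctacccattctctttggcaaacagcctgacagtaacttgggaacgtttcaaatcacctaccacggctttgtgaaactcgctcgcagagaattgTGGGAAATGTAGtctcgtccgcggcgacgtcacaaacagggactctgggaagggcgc
Zfp708: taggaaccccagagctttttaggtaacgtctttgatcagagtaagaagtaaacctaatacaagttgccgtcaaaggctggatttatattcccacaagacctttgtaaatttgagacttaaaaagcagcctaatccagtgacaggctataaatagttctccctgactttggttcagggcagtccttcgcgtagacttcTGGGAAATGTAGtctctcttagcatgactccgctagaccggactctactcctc
Rsl1: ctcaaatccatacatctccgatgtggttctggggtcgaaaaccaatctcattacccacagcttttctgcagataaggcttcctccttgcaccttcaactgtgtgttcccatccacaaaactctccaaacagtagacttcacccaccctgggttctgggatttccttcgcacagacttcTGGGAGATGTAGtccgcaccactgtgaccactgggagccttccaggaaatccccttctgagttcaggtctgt
Zfp933: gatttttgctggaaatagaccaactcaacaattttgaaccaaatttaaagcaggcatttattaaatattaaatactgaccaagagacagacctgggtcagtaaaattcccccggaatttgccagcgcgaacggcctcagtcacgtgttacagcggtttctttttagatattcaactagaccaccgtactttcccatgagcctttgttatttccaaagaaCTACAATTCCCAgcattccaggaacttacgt
Zfp640: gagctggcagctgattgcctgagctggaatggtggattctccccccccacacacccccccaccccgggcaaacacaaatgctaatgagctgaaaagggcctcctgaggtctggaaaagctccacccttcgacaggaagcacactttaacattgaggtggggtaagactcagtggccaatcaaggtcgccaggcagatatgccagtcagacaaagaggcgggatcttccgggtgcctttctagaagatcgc
The word ended 45 bases before the start in Zfp712, 41 in Zfp708, 60 in Rsl1 and 19 in Zfp933. For Zfp708 and Zfp933 that start is an alternative one inside the gene. Their annotated gene starts are at 67097976 and 147849126.

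All 20 distal carriers had a tested site at their start, with HAT1+/+ levels from 6.04 to 8.78. Of the 10 distal genes in the table without the word, 2 had a site, Zfp459 and Rslcan18, and their levels of 5.77 and 4.93 were below those of all 20 carriers. The distal genes with neither the word nor a site started in another part of the window, from 65420365 (Gm31714) to 66680803 (Zfp640). The 20 carriers started from 67061170 (Zfp712) to 67813816 (Zfp273), and Zfp459 and Rslcan18 lay among them. What part position or repeated sequence had was not tested. Zfp369 (9.06), Zfp87 (8.32), Zfp493 (8.02) and Zfp729b (7.45) had start sites but were not in the promoter table, so they were not classed by the word. On chromosome 4 the carrier Zfp933 had the highest start of a KRAB zinc finger gene in the window, at chr4:147848033-147848792 in an exon, with 6.29 in HAT1+/+ and 5.92 in HAT1-/-, and 3 of the 13 without the word had a site, at 4.49 or below. Over all windows 21 of 21 carriers and 17 of 54 other genes had a site. The difference between genotypes had a median of -0.16 at the 21 carriers and of -0.075 at the 14 others above the minima, which came from all 5 windows. Inside the distal window the medians were -0.15 at the 20 carriers and -0.26 at the 2 others. On chromosome 4 they were -0.37 at the 1 carrier and -0.40 at the 3 others. The carriers were not the more open ones among KRAB zinc finger genes elsewhere: 29 of 29 carriers had a site with a median of 7.57 in HAT1+/+, and 164 of 181 others had one with a median of 7.72. A gene was a carrier if any of its promoters in the table held the word. The word and the measured site can therefore belong to different starts of a gene. Genes of a cluster share promoters by descent, so they are not separate observations of the word.

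**Figure D5:**
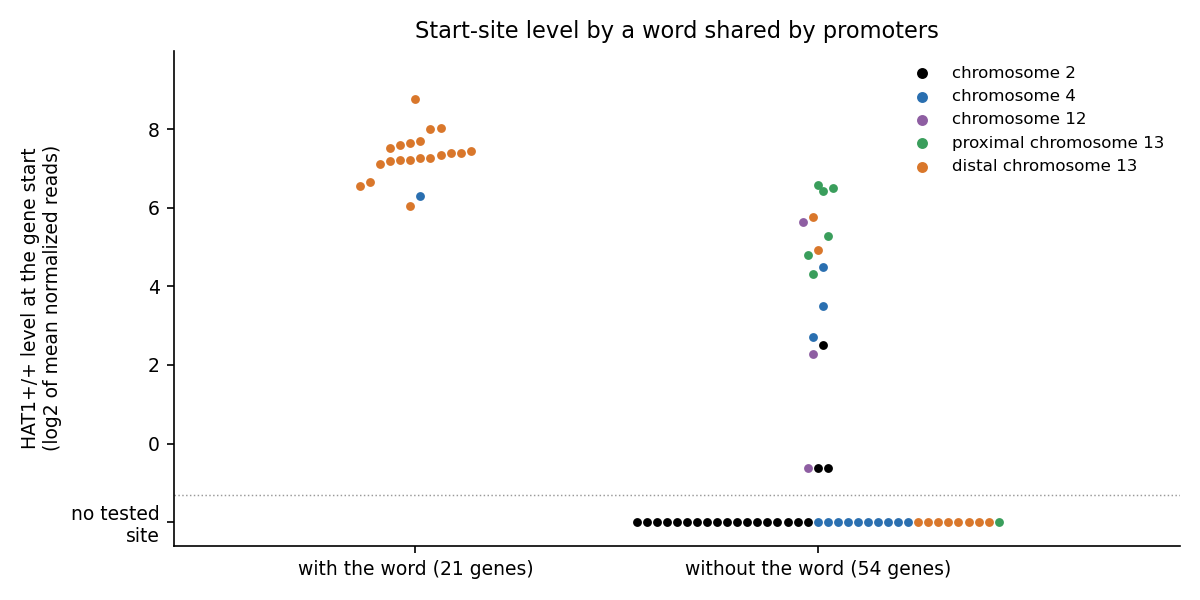
HAT1+/+ level at the start (log2 of mean normalized reads) of the 75 KRAB zinc finger genes of the windows found in the promoter table, by whether the promoter holds the 12-base word described in the text, coloured by window. Points under the dotted line are genes without a tested site, which are not thereby shown to be closed. The 21 carriers lie between 6.04 and 8.78, and 17 of the 54 other genes have a site, at 6.57 or below. Of the carriers 20 are distal chromosome 13 genes, and of the others 21 are chromosome 2 genes.

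Chromosome 4 had many sites, and most starts of its KRAB zinc finger genes had none. Its 262 sites had a median HAT1+/+ level above the minima of 3.12 (8.66 normalized reads), against 3.88 in its flanks, and 51 of its 218 sites above the minima had a mean of at least 16 reads. KRAB zinc finger genes of that window held 70 sites in their bodies, 19 of them at the minima. After Zfp933, the other starts with a site were Zfp978 (5.01 in HAT1+/+ and 4.90 in HAT1-/-), Zfp982 (4.49 and 4.09), Zfp984 (3.49 and 3.80), Zfp992 (2.98 and 2.70), Gm13212 (2.71 and 1.82) and Zfp991 (0.96 and 1.48). The shares of unique words in these sites were 99.5% at Zfp933, 60.1% at Zfp978, 82.0% at Zfp982, 49.7% at Zfp984, 36.6% at Zfp992, 33.7% at Gm13212 and 0% at Zfp991. The part of repeated sequence in these levels was not tested, and the 11 starts without a tested site are not thereby shown to be closed. The differences at the 7 sites, from -0.89 to 0.52, had both signs. Zfp600 and Rex2, both known from work on retroelements, had no tested site at their starts. For each gene a promoter picked for holding the word AGCTAATTAA was compared. That of Rex2, at chr4:147021600-147021899, lies inside the gene, whose annotated start is at 146973610. The promoters so picked share the 235 bases before the start, and that of Zfp600 is printed. It lies at chr4:146156577-146156826 (plus strand, GRCm38.p6), with the word in capitals.
Zfp600: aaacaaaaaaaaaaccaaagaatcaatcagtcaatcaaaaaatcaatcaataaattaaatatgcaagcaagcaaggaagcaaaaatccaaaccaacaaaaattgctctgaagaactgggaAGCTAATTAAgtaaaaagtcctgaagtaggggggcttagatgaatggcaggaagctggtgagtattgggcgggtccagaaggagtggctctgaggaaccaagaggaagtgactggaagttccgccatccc
The word AGCTAATTAA, on either strand, was in 12 of the 14 chromosome 4 promoters in the table, in 0 of the 210 KRAB zinc finger genes elsewhere and in 22 (0.081%) of the 27025 symbols. It was the rarest in the table of the 6 words of 10 bases that 12 of these promoters held, and it was likewise chosen after shared words had been seen. Inside Zfp600, the 5 tested sites had at most 31.8% unique words and HAT1+/+ levels of 2.65 or below.

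Larger differences were found at other, weaker sites of the clusters. Inside Zfp759 on distal chromosome 13, a site in an exon at chr13:67141444-67141756, with all of its words unique, had 4.02 (16.2 reads) in HAT1+/+ and 1.51 (2.85 reads) in HAT1-/-. The start site of the same gene had 7.20 and 7.06. An intergenic site at chr13:67864410-67864607 had 3.87 and 1.46. Beside the start of Rsl1, a site in its intron at chr13:67173736-67173992 had 4.31 and 2.89, a difference of -1.42, while the neighbouring start site differed by -0.20. On chromosome 4, 3 neighbouring intronic sites of Gm13212 between 145594356 and 145595843 were all lower: 2.43, 2.96 and 1.99 in HAT1+/+ stood against -0.43, 0.50 and -0.43 in HAT1-/-, where -0.43 is the minimum of the column. Those 3 sites had 9.56%, 15.7% and 65.3% unique words and at most 7.78 reads. The next 2 intronic sites of the gene went the other way, with -0.33 and 0.29 at 145590259 and 1.99 and 2.48 at 145592448, as did an intergenic site nearby at 145581493 with 0.87 and 2.02. Of these places, the Zfp759 site alone had only unique words.

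Among sites with a mean of at least 16 normalized reads, 175 in the windows, 1 had a difference of -1 or below (0.571%) where 2.90% of all such sites did, and 4 had 1 or above (2.29%) where 0.376% did. The low one, at chr12:19288293-19288620 in an intron of the predicted gene Gm5953, had 5.23 in HAT1+/+ and 4.19 in HAT1-/-. None of the 4 high sites belonged to a zinc finger gene. One at the start of the non-coding gene 1700030C10Rik, at chr12:20815488-20816066, had 6.07 (67.2 reads) and 7.19 (146.0 reads). An intronic site of Asap2, a regulator of Arf GTPases, at chr12:21217097-21217495 had 3.28 and 4.56. The start of Fbp1, which encodes the gluconeogenic enzyme fructose-1,6-bisphosphatase, at chr13:62887454-62888079 in an exon, had 3.71 and 4.80. The first member of the chromosome 4 window, in an intron of Tnfrsf8, which encodes the receptor CD30, had 3.75 and 4.91. Both Fbp1 and Tnfrsf8 lie at window edges.

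The remaining sites named by the rule had smaller differences. On chromosome 4 the lowest were 2 intergenic sites, at chr4:145329717-145330467 with 4.94 in HAT1+/+ and 4.03 in HAT1-/-, and at chr4:147416298-147416765 with 4.46 and 3.86. A site near the pseudogene Vmn2r-ps20 had 3.83 and 4.57. On chromosome 12 an intronic site of the esterase gene Iah1 had 4.49 and 3.83. In the proximal window of chromosome 13 an intergenic site had 5.52 and 4.86, and 2 intronic sites of Fbp1 had 4.59 and 4.02, and 3.84 and 4.36. In the distal window the start of the predicted gene Gm10037 had 4.84 and 4.07, a second site at Zfp65 had 4.50 and 3.82, and 2 intergenic sites had 3.87 and 4.81, and 4.30 and 5.06. The most open sites of the windows on chromosomes 4, 12 and 13 differed by 0.07 or less in either direction: 9.57 and 9.50 at Ywhaq, a 14-3-3 protein gene, 9.03 and 9.05 at the shared start of Miip and Fv1, the latter a restriction factor for murine leukaemia virus, 9.44 and 9.40 at the non-coding Gm36445, and 6.92 and 6.95 in an intron of Fbp2. The most open KRAB zinc finger starts of chromosome 12 and proximal chromosome 13 were 5730507C01Rik with 5.65 and 5.35, and Zfp935 with 6.57 in both genotypes.

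By place, the 63 sites at starts of KRAB zinc finger genes had a median difference of -0.14, a HAT1+/+ median of 5.65 and a median of 79.4% unique words, and 39 of them lay in the distal window. The 61 sites inside such genes had 0.00 at a level of 2.49, with a median of 58.7% unique words (33.0% over all 81, with the 20 at the minima). The 24 sites at starts of other coding genes had -0.075, the 96 inside other coding genes 0.015, and the 181 sites away from any gene start or coding gene -0.03. Of the members past 1, 6 of the 20 low ones and 6 of the 19 high ones lay at or in a KRAB zinc finger gene, as did 148 of all 533 members (27.8%).

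Start sites of the machinery that works with KRAB zinc finger proteins were open in both genotypes. All 19 genes of the co-repressor list had one, with HAT1+/+ levels from 5.49 at Setdb1 to 9.68 at Cbx5 and a median difference of -0.01, and 0 of 19 reached 1 in either direction, where 1.30% of 14730 start sites of coding genes were at -1 or below and 0.394% at 1 or above. Trim28 had 8.30 and 8.33, Setdb1 5.49 and 5.13, and Ehmt2, an H3 K9 methyltransferase, 6.54 and 5.87, the lowest difference of the list. Of 14 KRAB zinc finger genes listed as known from work on retroelements, imprints or liver genes, 12 had a start site, with a median difference of -0.125. Zfp57, a guardian of imprints, had 7.35 and 6.92, Zfp445, which acts with it, had 6.47 and 6.70, and Zfp809, which silences murine leukaemia provirus, had 7.68 and 7.80. Of the marker lists, 10 of 10 fibroblast genes had a start site (HAT1+/+ levels from 5.17 to 9.29), as did 6 of 9 genes of other cell types (3.05 to 5.25), with none at Pecam1, Sox10 or Neurod1. At the start of Hat1 the levels were 7.69 and 7.90. Which part of the gene the mutant allele lacks was not given in the sources used here, so that site is no check of the labels.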

How the data were processed

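ATAC-Seq was performed by the authors on 3 HAT1+/+ and 3 HAT1-/- lines of primary MEFs. Reads were aligned to mm10 with Bowtie2, peaks were called with MACS2, and the values were made with DiffBind 2.14.0, per the submitters' processing notes and the study's methods. The table the authors deposited gives, for each site, the log2 of the mean normalized reads of each genotype. Values of single lines and their read depths were not analysed here, so no test, SD or interval between lines was computed. Columns of the authors' own fold change, p-value and false discovery rate were not used. There were 0 columns of other samples.

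Members were sites with their midpoint in the windows. Differences were the HAT1-/- minus the HAT1+/+ column. Normalized reads are 2 to the power of the log2 value. Sites at the minimum of both columns were counted apart. Uniqueness was the share of a site's 31-base words found once in the mm10 genome, on either strand. Over windows and flanks every 50th base was read, and over all chromosomes every 5000th. RefSeq genes (GRCm38.p6) gave starts, exons and translated proteins. A start site was the tested site with the highest mean level within 1 kb of any annotated transcript start of a gene. It can therefore lie at an alternative start, as at Zfp708, Zfp459 and Zfp759. Promoters came from the RefSeq promoter table, which held 75 of the 85 KRAB zinc finger genes. Since no table of proteins was supplied, genes named Zfp or Znf were the planned set, and the set by protein pattern was added after the data were seen, as were the shared words and the alternatives without sites at the minimum. Named sites were, in each window, the 2 lowest and 2 highest differences among sites with a mean of at least 16 normalized reads, the most open site and the most open KRAB zinc finger start. The sites inside Zfp759 and Gm13212, beside Rsl1 and at chr13:67864410-67864607 were named after their values were seen, as were the genes listed at starts. The members, lists and windows were chosen with earlier results of these data known. The counting of 31-base words was tested on simulated data. Python 3.11.15, pandas 2.3.3, numpy 2.4.6 and numba 0.67.0 were used.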

Additional observations from a re-analysis of the deposited data

How the results depend on the processing

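No paired analysis was possible because the values used here are 1 mean per genotype, and for the same reason no line was left out in turn. The median difference of the 533 members, 0.02, was positive only with the sites at the column minima counted at 0.18. It was -0.05 without those sites (an alternative added after the data were seen), -0.08 over members of at least 16 normalized reads, -0.03 over members with at least 90% unique words, -0.08 without the chromosome 4 window and -0.0773 as the log2 ratio of summed reads, and it was 0.08 relative to the median of all tested sites. The median of chromosome 2 went from 0.18 to -0.98, a single site, without the minima. The share of members at -1 or below, 3.75%, was 10.7% at a limit of -0.58 and 0.571% among members of at least 16 reads. The share at 1 or above, 3.56%, was 10.1% at 0.58 and 2.29% among members of at least 16 reads. The median of members minus that of the flanks, 0.09, was 0.035 at 16 reads or more, 0.02 at promoter sites and 0.02 without the minima. Density in the windows was 29.2% of that in the flanks, and 34.0% with flanks of 1 Mb. The share of KRAB zinc finger starts with a site did not move by more than 1.5 times in any of 3 alternatives (52.9% to 66.0%). Differences at few reads and in repeated sequence limit what can be read inside the clusters, and the genotype means leave the spread between lines unknown.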

Other observations

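Outside the windows, the start sites of 10 KRAB zinc finger genes were at both column minima. Of these, 6 lie on chromosome 10 between 81687169 and 81978089 (Gm51792, Zfp433, Gm3055, Gm51793, Zfp781 and Gm19802) and 4 on chromosome 17 (Zfp97, Gm38396, Zfp955a and Zfp955b). Over the genome, the bins of 1 Mb with most sites at the minima were 69 to 70 Mb of chromosome 14, with 106 of 187 sites, and 6 to 7 Mb of chromosome 17, with 72 of 297. The 3 bins that hold most of the chromosome 4 window had 15 of 155, 14 of 60 and 15 of 132.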
